A study of Homo sapiens with 2 samples.

Results

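The 10 genes described here encode subunits of Polycomb repressive complex 2 (PRC2), and were taken from the deposited gene tables by symbol out of 11619 listed genes. They are EZH1, EZH2, EED, SUZ12, RBBP4 and RBBP7, which make up the core of the complex, and MTF2, PHF19, JARID2 and AEBP2, which are accessory subunits. All 10 were listed under 1 Ensembl identifier each and were above 0 in both libraries. RNA had been taken from NB4, a human cell line of acute promyelocytic leukemia (APL) that carries the PML/RARα fusion, on day 3 after lentiviral infection. There were 2 libraries of total RNA, 1 of cells with an shRNA against the long non-coding RNA CRNDE (sh-CRNDE) and 1 of cells with a non-targeting shRNA (sh-Control). Both groups carried the fusion and a lentiviral vector with ZsGreen1 as its marker, and which CRNDE shRNA had been used for sequencing is not given in the sources used here. With 1 library per group, differences could not be checked against replicates and no test was run.

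PRC2 adds methyl groups to lysine 27 of histone H3, the mark H3K27me3, which is found at silent developmental genes. EZH2 or its paralog EZH1 is the methyltransferase, SUZ12 is the scaffold on which the complex is built, EED reads the methyl mark, and RBBP4 and RBBP7 bind histones. Accessory subunits define a pair of alternative forms of the complex. MTF2 and PHF19, both Polycomb-like proteins, belong to one form, and JARID2 and AEBP2 to the other. In myeloid leukemia, loss as well as excess of PRC2 activity has been described. CRNDE has been reported to bind PRC2, and the comparison shows the RNA levels of the subunit genes when CRNDE was lowered.

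The values are FPKM, that is fragment numbers scaled by transcript length and by the mapped fragments of a library, so that levels of different genes can be set side by side. The difference of a gene is log2(FPKM + 1) in sh-CRNDE less that in sh-Control, and a gene was counted as past 1.5-fold when this difference was over 0.585 in size. The added value of 1 understates differences of lowly expressed genes. CRNDE itself was at 5.92 FPKM in the control library against 1.85 FPKM after knockdown, a difference of -1.28. The median FPKM was 3.95 in sh-Control and 3.89 in sh-CRNDE, and the median difference over all genes was -0.01. All FPKM values summed to 141217 in the control library and to 170373 after knockdown. Of these sums, 132 mitochondrial, ribosomal and small RNA genes held 606 FPKM in sh-Control and 28608 in sh-CRNDE, and the other 11487 genes held 140611 and 141766. Depth is unknown, because FPKM keeps no read counts and the lowest values showed no steps of whole reads. Of 10 promyelocytic and myeloid marker genes, 8 were listed (all but ELANE and KIT), and their summed FPKM was 1433 in sh-Control and 867 in sh-CRNDE. CEBPA, one of the 8, was listed at 0 in the control library, against 26.1 FPKM after knockdown. Of the markers of other lineages, 0 of 5 erythroid, 3 of 5 B cell, 2 of 5 T cell and 2 of 5 megakaryocytic genes were listed. Their sums were 3.98 and 4.33 FPKM for the B cell and 0.818 and 1.04 FPKM for the megakaryocytic genes, in sh-Control and sh-CRNDE respectively. CD4, which myeloid cells also express, made up 33.4 FPKM of the T cell sum of 34.4 FPKM in sh-Control and 22.5 of 23.7 FPKM in sh-CRNDE. The part of these marker differences in the results below was not tested. In bulk RNA, fewer cells of a type and less RNA per cell cannot be told apart.

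Most PRC2 subunit genes had close values in the libraries, and SUZ12 and JARID2 stood on opposite sides. Of the 10 genes, 1 was higher past 1.5-fold in sh-CRNDE (JARID2), 1 was lower (SUZ12), and 8 were not past it. Over all 11619 genes, 17.2% were past 1.5-fold, 8.38% higher and 8.83% lower, so that the members' count is near the background. Both libraries were also rescaled to the same sum over all genes, a setting added after seeing the data. In that setting 960 genes were higher and 3001 lower, and of the members 0 were higher and 2 were lower (SUZ12 and PHF19). The common sum was above both FPKM sums, so the added 1 weighed less, and these counts do not show scaling alone. Among 8773 genes that reached 1 FPKM in each library, as all 10 members did, 14.1% were past 1.5-fold, 6.67% higher and 7.45% lower. Past 2-fold were 0 of the 10 members (0 of 10) and 6.66% of all genes, 3.43% higher and 3.23% lower. The median difference of the 10 genes was 0.03. The summed FPKM of the 10 genes was 134.6 in sh-Control and 131.8 in sh-CRNDE, and without SUZ12 and JARID2 it was 107.7 and 108.6.

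**Figure D1:**
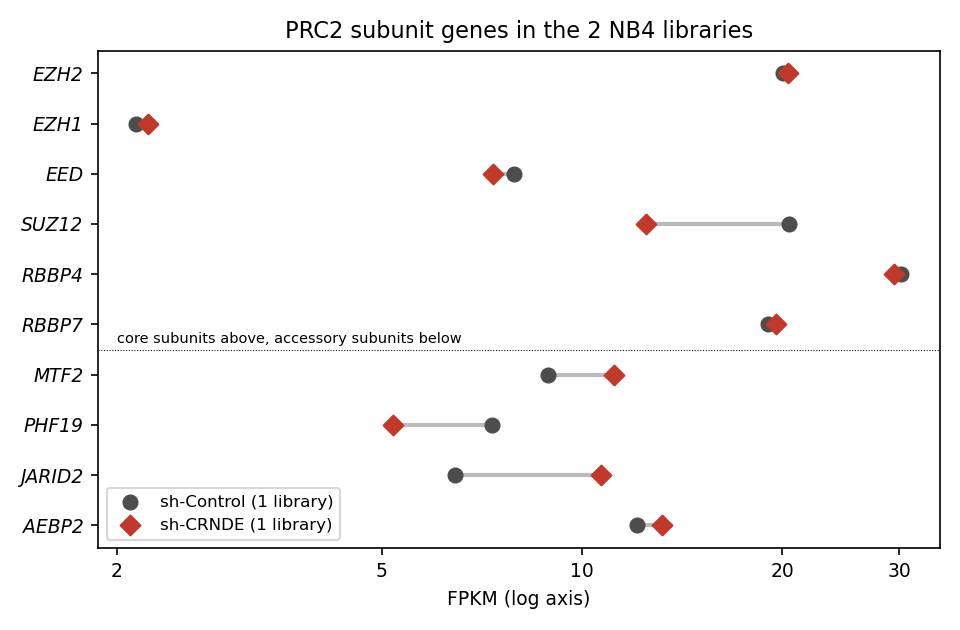
FPKM (log axis) of the 10 PRC2 subunit genes in the sh-Control library (circles) and the sh-CRNDE library (diamonds), 1 library each and so without error bars, with a line joining the values of a gene. The markers nearly coincide for EZH2, EZH1, RBBP4 and RBBP7, and lie farthest apart for SUZ12 (20.5 and 12.5 FPKM) and JARID2 (6.45 and 10.7 FPKM).

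One question of the study was whether CRNDE takes up microRNAs of the miR-181 family, so the subunit genes were searched for the match to its seed. A microRNA guides silencing mainly through its seed, bases 2 to 8, which is capitalised below and is the same in the mature 5p forms of all 4 family members (RefSeq, GRCh38.p14).
miR-181a-5p: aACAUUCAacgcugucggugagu
miR-181b-5p: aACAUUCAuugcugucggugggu
miR-181c-5p: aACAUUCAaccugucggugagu
miR-181d-5p: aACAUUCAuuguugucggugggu
The reverse complement of the seed, TGAATGT in DNA letters, was searched on the transcript strand of the 3' UTR of each canonical transcript. It was found in 4 of the 10 subunit genes (EED, JARID2, MTF2 and RBBP7) and in 21.4% of 9925 listed protein-coding genes. The median 3' UTR length was 2042 nucleotides for the subunit genes and 1275 nucleotides for all these genes. The matches are shown with their surroundings, 30 bases each and with the match in capitals, because they are the places where a microRNA of this family could pair. Coordinates are GRCh38.
EED chr11:86278629-86278658, plus strand: cagcattcaatcaggctgagcTGAATGTag
RBBP7 chrX:16845000-16845029, minus strand: aagtacgagaaatgtttctgtTGAATGTaa
JARID2 chr6:15521253-15521282, plus strand: taggaggcctgcagttattttTGAATGTga
MTF2 chr1:93138736-93138765, plus strand: cacagagtttgtgttgattttTGAATGTtt
MTF2 chr1:93138934-93138963, plus strand: tgtctttagacgtaattattgTGAATGTct
MTF2 held 2 matches, and the matches of EED and RBBP7 are followed by an A. Of the genes with a match, JARID2 was at 0.65, MTF2 at 0.30, which was not past 1.5-fold and 0.12 after correction for GC content, RBBP7 at 0.04 and EED at -0.09. Over all protein-coding genes searched, the median difference was 0.05 for the 2127 with a match and -0.03 for the 7798 without. With the median of genes of similar GC content subtracted, it was -0.03 with a match and -0.00022 without. A match is a description of the sequence and no binding was measured here. The study reported lower NOTCH2, which it names as a miR-181 target, after CRNDE knockdown and after miR-181 overexpression. JARID2 and MTF2 were on the other side of 0 from NOTCH2, and EED was on the same side. RBBP7, at 0.04, turned to -0.04 after the GC correction. Whether any of the matches act was not tested.

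The catalytic subunit genes were nearly level. EZH2 (ENSG00000106462, minus strand of chromosome 7, 148807257 to 148884321 in GRCh38) was at 20.1 FPKM in the control library against 20.4 FPKM after knockdown, a difference of 0.02. EZH1 (ENSG00000108799, minus strand of chromosome 17, 42700275 to 42745049) was the lowest of the 10 genes in both libraries, at 2.14 FPKM in the control library against 2.23 FPKM after knockdown, a difference of 0.04. The EZH2 gene, whose product is the main enzyme of dividing cells, was thus 9.37 times the level of EZH1 in sh-Control and 9.15 times in sh-CRNDE. The summed level of both enzymes was 22.2 FPKM in the control library against 22.7 FPKM after knockdown.

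SUZ12 was the core subunit gene that differed most. SUZ12 (ENSG00000178691, plus strand of chromosome 17, 31937007 to 32001038) was at 20.5 FPKM in the control library against 12.5 FPKM after knockdown. The FPKM in sh-CRNDE was 0.609 times that in sh-Control, and the difference on the log2(FPKM + 1) scale was -0.67. It took SUZ12 from rank 2 of the 10 genes in sh-Control, beside EZH2, to rank 5 in sh-CRNDE. Of all genes, 6.89% had a lower difference. The ratio of SUZ12 to EZH2, which needs no scaling between libraries, was 1.02 in sh-Control and 0.612 in sh-CRNDE.

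A partial copy bears on this value. SUZ12P1, a transcribed unprocessed pseudogene on the same chromosome (30731886 to 30776402), was listed at 2.91 FPKM in the control library against 3.52 FPKM after knockdown, a difference of 0.21, opposite in sign to that of SUZ12. Of the 4446 stretches of 50 bases in the canonical SUZ12 transcript, 430 (9.67%) were also found in transcripts of other genes, 413 of them in SUZ12P1. The deposited values do not show how reads from these stretches were assigned. When the FPKM of SUZ12 and SUZ12P1 was summed, the level was 23.4 in sh-Control and 16.0 in sh-CRNDE, and the difference of -0.52 was not past 1.5-fold. The canonical transcripts have 4495 bases for SUZ12 and 985 bases for SUZ12P1. Because FPKM is per length, this sum gives reads of the pseudogene more weight than reads of SUZ12. It therefore does not show whether SUZ12 would be past 1.5-fold with those reads added.

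The remaining core subunit genes were close in both libraries. EED (ENSG00000074266, plus strand of chromosome 11, 86201212 to 86278813), whose product binds the methyl mark and activates the enzyme, was at 7.91 FPKM in the control library against 7.35 FPKM after knockdown, a difference of -0.09. RBBP4 (ENSG00000162521, plus strand of chromosome 1, 32651142 to 32686211) was the highest of the 10 genes in both libraries, at 30.2 FPKM in the control library against 29.4 FPKM after knockdown, a difference of -0.04. RBBP7 (ENSG00000102054, minus strand of chromosome X, 16839283 to 16870362) was at 19.0 FPKM in the control library against 19.6 FPKM after knockdown, a difference of 0.04. RBBP4 and RBBP7 encode paralogous histone chaperones that also serve the CAF-1, NuRD and SIN3 complexes. Their ratio was 1.59 in sh-Control and 1.502 in sh-CRNDE, and their sum 49.3 and 49.0 FPKM. RBBP4 shared 5.99% of its stretches of 50 bases with other genes, its processed pseudogenes among them. RBBP4P1 was listed at 0.781 FPKM in the control library against 1.28 FPKM after knockdown, and with it added the difference of RBBP4 was -0.01. Exons of RBBP4 overlap 2160 bases of SYNC on the opposite strand, and exons of EED overlap 221 bases of an opposite-strand lncRNA gene (ENSG00000288809), neither of which was listed. Exons of RBBP7 overlap 179 bases of TXLNG on the opposite strand, which was at 13.2 FPKM in the control library against 14.7 FPKM after knockdown. As the strand setting of the counting is not given in the sources used here, reads from these 3 overlaps cannot be told apart.

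The Polycomb-like genes differed in opposite directions, and their sum was nearly level. MTF2 (ENSG00000143033, plus strand of chromosome 1, 93079235 to 93139079) was at 8.89 FPKM in the control library against 11.2 FPKM after knockdown, a difference of 0.30. PHF19 (ENSG00000119403, minus strand of chromosome 9, 120855651 to 120894896) was at 7.32 FPKM in the control library against 5.20 FPKM after knockdown, a difference of -0.42. Neither was past 1.5-fold by itself, but PHF19 was at -0.75 after rescaling over all genes. Their ratio was 1.21 in sh-Control and 2.15 in sh-CRNDE, a log2 difference of 0.83, and their sum was 16.2 and 16.4 FPKM. The transcripts differ in base composition, with 37.5% GC in MTF2 and 56.6% in PHF19. With the median difference of genes of similar GC content subtracted, MTF2 was at 0.12, PHF19 at -0.27, and the log2 difference of their ratio at 0.49, below that of 1.5-fold.

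JARID2 was the subunit gene with the highest difference. JARID2 (ENSG00000008083, plus strand of chromosome 6, 15246069 to 15522042) encodes a protein of the Jumonji family that helps to bring PRC2 to chromatin and stimulates its enzyme. Its 3' UTR holds a miR-181 seed match, the effect of which was not tested. It was at 6.45 FPKM in the control library against 10.7 FPKM after knockdown, which is 1.65 times the sh-Control level and a difference of 0.65. It was at 0.45, within 1.5-fold, when the libraries were rescaled to the same sum over all genes. Of all genes, 93.0% had a lower difference. JARID2 stood at rank 9 of the 10 genes in sh-Control and at rank 7 in sh-CRNDE. None of its 5954 stretches of 50 bases was found in a transcript of another gene (0 of 5954). JARID2-DT (ENSG00000271888), the divergent lncRNA gene next to it, was chosen after its values were seen. It was listed at 0 in the control library and 0.525 FPKM after knockdown. As only genes above 0.5 FPKM in at least 1 library are listed, its listing and its direction follow from the sh-CRNDE value. AEBP2 (ENSG00000139154, plus strand of chromosome 12, 19404045 to 19720801), which encodes a zinc finger protein of the same form of the complex, was at 12.1 FPKM in the control library against 13.2 FPKM after knockdown, a difference of 0.12. The ratio of JARID2 to AEBP2 was 0.533 in sh-Control and 0.807 in sh-CRNDE, a log2 difference of 0.60, which was 0.53 and below 1.5-fold with 1 FPKM added to each gene. The sum of JARID2 and AEBP2 was 18.6 FPKM in the control library against 23.9 FPKM after knockdown. Relative to it, the summed level of MTF2 and PHF19 was 0.873 in sh-Control and 0.686 in sh-CRNDE.

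**Figure D2:**
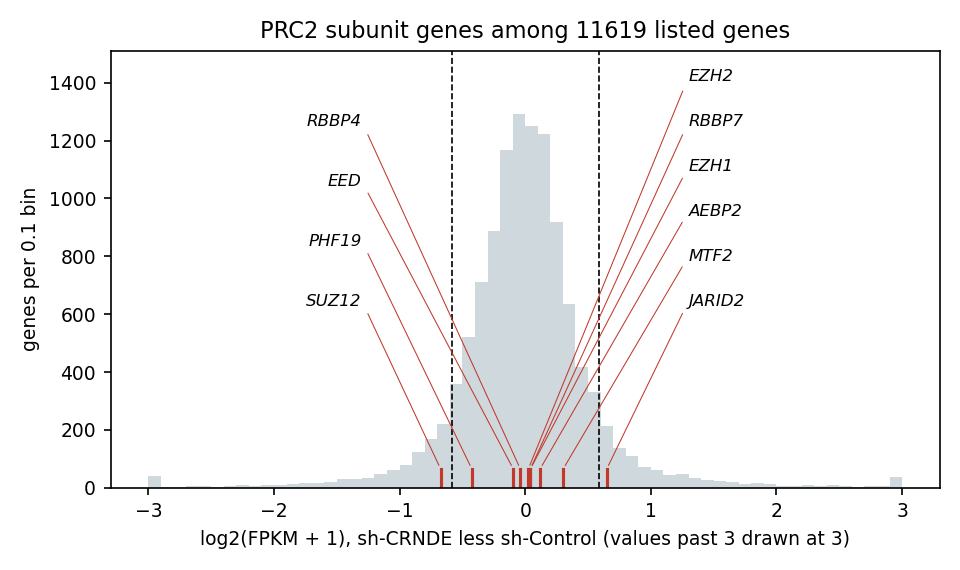
Distribution of the difference in log2(FPKM + 1), sh-CRNDE less sh-Control, over 11619 genes (grey, bins of 0.1, values past 3 drawn at 3), with the 10 PRC2 subunit genes as red ticks and 1.5-fold as dashed lines. SUZ12 (-0.67) and JARID2 (0.65) lie just outside the lines, and 6 of the other 8 genes lie within 0.12 of 0.

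The scaling of the libraries decided the call for JARID2. With both libraries rescaled to the same sum over all genes, the median difference of all genes was -0.27, JARID2 was at 0.45 and SUZ12 at -0.98. Under the 6 other settings both genes were past 1.5-fold, with JARID2 from 0.65 to 0.73 and SUZ12 from -0.86 to -0.67. Among these settings was the same rescaling without the mitochondrial, ribosomal and small RNA genes, in which JARID2 was at 0.70. The pseudocount, median centring, quantile normalization and the latter rescaling moved the other genes little. GC content moved several. Over all genes, the median difference was 0.18 in the lowest and -0.31 in the highest of 10 bins of GC content, so that transcripts poor in GC tended to be higher in sh-CRNDE. SUZ12, at 38.2% GC, went against this order, and its difference was -0.86 once the median of its bin was subtracted. JARID2, at 49.9% GC, stayed at 0.66. After the same subtraction RBBP4 was at -0.16 and EED at -0.17, and the signs of EZH2 (-0.05), RBBP7 (-0.04) and AEBP2 (-0.04) turned. EZH2 also turned under quantile normalization, at -0.0032. After rescaling over all genes these 3 genes were below 0 as well, and EZH1 was at -0.20. No direction is therefore given for these 4 genes.

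**Figure D3:**
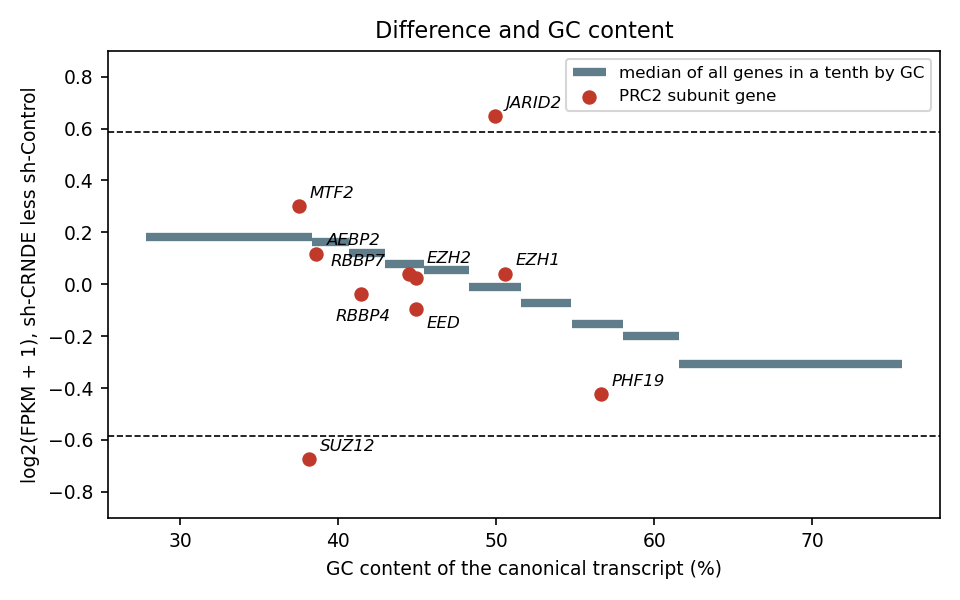
Difference in log2(FPKM + 1), sh-CRNDE less sh-Control, of the 10 PRC2 subunit genes (red) against the GC content of their canonical transcripts, with the median difference of all genes in each of 10 bins of GC content as grey bars and 1.5-fold as dashed lines. MTF2 (37.5% GC) and PHF19 (56.6% GC) lie on the same side as the bars of their bins, and SUZ12 (38.2% GC) lies on the side opposite to its bar.

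**Figure D4:**
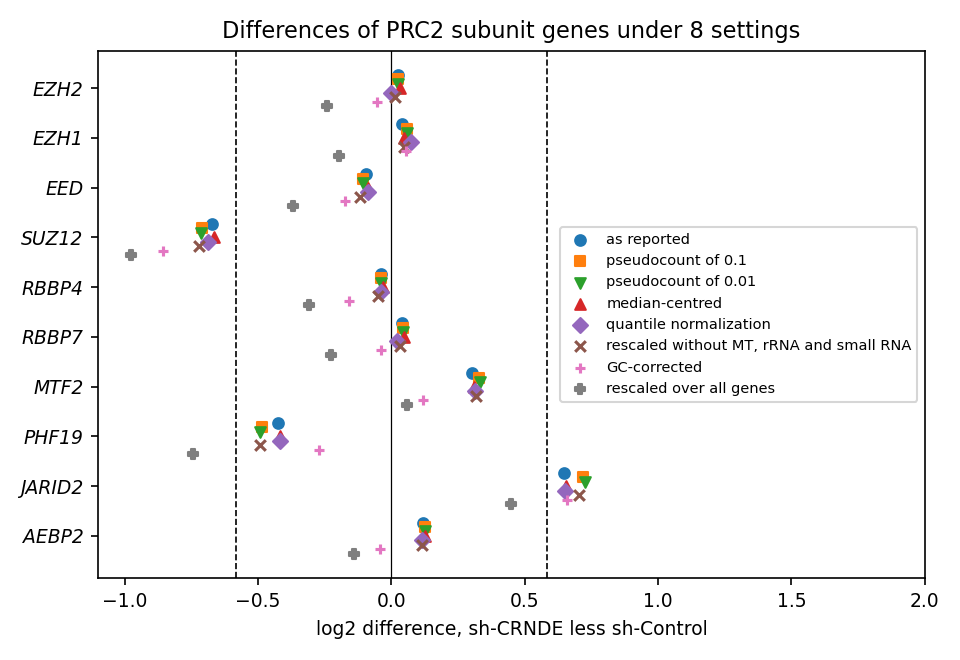
The same differences computed under 8 settings, 1 marker for each setting, with 1.5-fold as dashed lines. Rescaling over all genes shifts every gene to the left and puts JARID2 (0.45) within the lines and PHF19 (-0.75) outside them, while all markers of SUZ12 (-0.98 to -0.67, without SUZ12P1 added) lie outside.

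The genes around the subunit genes were set beside them. Within 1 Mb of SUZ12, 14 other genes were listed, of which EVI2B was higher past 1.5-fold (2.59) and EVI2A lower (-1.78). The median difference of the 14 was 0.19. Around JARID2, 4 other genes were listed, and the only one past 1.5-fold was the divergent lncRNA gene given above. That gene was listed through sh-CRNDE only, so its direction is no result about the neighbourhood. MTF2 had the neighbourhood with the highest median difference, 0.42 over 14 genes. FAM69A (0.70), TMED5 (2.03), CCDC18 (0.60), DNTTIP2 (0.63) and GCLM (0.99) were higher past 1.5-fold there, 5 of 14 against 8.38% of all genes, and 0 were lower. Their transcripts have between 35.6% and 39.9% GC, and after the GC subtraction 2 of the 5 were past 1.5-fold, TMED5 (1.84) and GCLM (0.81), with a median of 0.30 over the 14. CCDC18 overlaps an antisense lncRNA gene, CCDC18-AS1, and reads from the overlap cannot be told apart without strand. FAM69A (0.289) and CCDC18-AS1 (0.351) did not reach the listing limit of 0.5 FPKM in sh-Control. Only their sh-CRNDE values (1.09 and 0.648) brought them into the list, so their direction follows from the listing. The count of 5 of 14 and the medians of this neighbourhood rest in part on such genes. These neighbouring genes were named after their values were seen.

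Other genes of the Polycomb system were taken from lists. The counts that follow are without rescaling, where 8.38% of all genes were higher past 1.5-fold and 8.83% lower. Rescaling over all genes gave more lower genes in 5 of the 7 lists, among them 10 of 26 PRC1 genes. In that setting, where the added 1 also weighed less, 3001 of all 11619 genes were lower. Of 5 further accessory genes of PRC2, 3 were listed and 0 were past 1.5-fold (0 of 3). EPOP, listed as C17orf96, was the most abundant of them, at 8.003 FPKM in the control library against 5.70 FPKM after knockdown, a difference of -0.43. The transcript of this gene has 64.1% GC, and the difference was -0.12 once the median of its GC bin was subtracted.

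PRC1, the complex that ubiquitinates histone H2A and binds the mark that PRC2 makes, had differences in both directions. Of 30 genes, 26 were listed, with 2 higher past 1.5-fold, 5 lower and a median of -0.14. CBX6, a chromodomain subunit of PRC1, was at 0.695 FPKM in the control library against 8.28 FPKM after knockdown, a difference of 2.45. RNF2, the catalytic subunit of PRC1, was at 3.27 FPKM in the control library against 6.06 FPKM after knockdown, a difference of 0.72 that was 0.54 and not past 1.5-fold after the GC subtraction. The lowest differences were those of PHC2 (-1.12), a polyhomeotic subunit at 6.53 FPKM in the control library against 2.46 FPKM after knockdown, and SCML2 (-0.78), at 3.75 and 1.76 FPKM. USP7, a deubiquitinase found with PRC1, was the most abundant gene of the list and was at 27.4 FPKM in the control library against 29.2 FPKM after knockdown, a difference of 0.09.

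Of the enzymes that oppose Polycomb marks and their cofactors, 5 of 6 genes were listed, with 0 higher, 1 lower and a median of -0.14. ASXL2, a cofactor of the H2A deubiquitinase, was at 6.76 FPKM in the control library against 3.53 FPKM after knockdown, a difference of -0.77. BAP1, the deubiquitinase itself, was at 15.5 FPKM in the control library against 18.8 FPKM after knockdown, a difference of 0.26.

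RBBP4 and RBBP7 are shared with other chromatin complexes, and 24 of 25 genes of these were listed, with 3 higher, 1 lower and a median of 0.09. The higher genes were LIN52 of the DREAM complex (1.499), GATAD2B of NuRD (1.25) and SAP18 of SIN3 (1.07). LIN52 was at 0.888 FPKM in the control library against 4.34 FPKM after knockdown. With at least 1 FPKM in both libraries, 2 genes of this list were higher. SAP30, another SIN3 subunit, was at -0.60, and at -0.53 after the GC subtraction. CHD4, the NuRD ATPase and the most abundant gene of the list, was at 66.9 FPKM in the control library against 69.8 FPKM after knockdown, a difference of 0.06. Of its stretches of 50 bases, 88.6% are shared with a second annotated gene, ENSG00000285238.

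E2F factors are known activators of EZH2 and EED, and EZH2 is known to be high in dividing cells. Of 12 genes of the E2F and RB family, 11 were listed, with 1 higher, 2 lower and a median of -0.13. RBL1, a pocket protein, was at 4.60 FPKM in the control library against 8.79 FPKM after knockdown, a difference of 0.81. TFDP1, the partner of the E2F proteins and the most abundant gene of the list, was at 73.8 FPKM in the control library against 47.8 FPKM after knockdown, a difference of -0.61. E2F5 was at -0.586, which was -0.580 after median centring and -0.55 after quantile normalization, both within 1.5-fold. Of 16 proliferation genes, all were listed, with 0 higher, 2 lower and a median of 0.21. CCNA2, the cyclin of S and G2 phase, was at -0.98 and MCM2, a subunit of the replicative helicase, at -0.83, while PCNA, the most abundant, was at 175.3 FPKM in the control library against 182.9 FPKM after knockdown, a difference of 0.06 whose sign turned under quantile normalization and the GC subtraction. EZH2, at 0.02, was within 1.5-fold, as were 14 of these 16 genes and 9619 of all 11619 genes.

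Few classical Polycomb targets could be read. Of 42 HOX and cell cycle inhibitor genes, 7 were listed, all of them HOX genes, and the tables hold only genes above 0.5 FPKM in at least 1 library. Of the 7, 1 was higher past 1.5-fold, 1 was lower, and the median difference was 0.36. Several of the 7, HOXA13 among them, were above 0.5 FPKM in sh-CRNDE only. Their direction, and in part the median, follow from this listing. With at least 1 FPKM in both libraries, 0 were higher and 1 was lower. HOXA13 was listed at 0 in the control library, against 3.13 FPKM after knockdown, so that no fold is given. HOXA10, the most abundant, was at 9.36 FPKM in the control library against 12.5 FPKM after knockdown, a difference of 0.38. The number of HOX genes past 1.5-fold changed with the pseudocount, from 1 higher to 4 higher at 0.1.

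**Figure D5:**
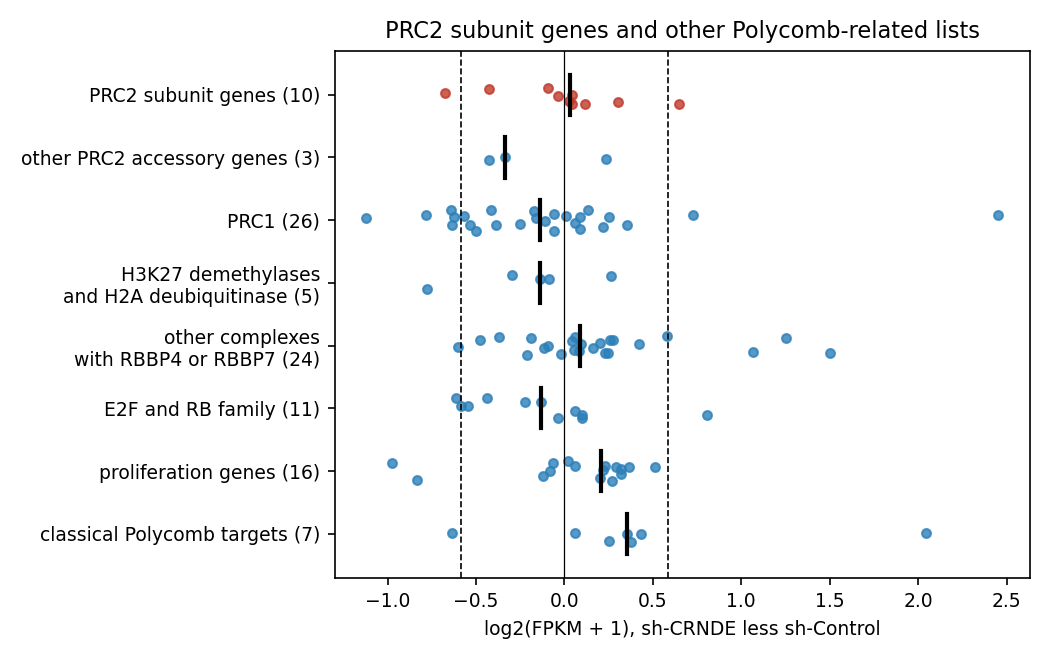
Difference in log2(FPKM + 1), sh-CRNDE less sh-Control, of each gene in the PRC2 subunit list (red) and 7 related lists (blue), with the number of listed genes in brackets, the median of each list as a black bar and 1.5-fold as dashed lines. The PRC2 subunit genes span -0.67 to 0.65, and the PRC1 genes span -1.12 to 2.45.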

How the data were processed

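The authors deposited 1 table of FPKM values per library, with symbols and Ensembl identifiers. The submitters' processing notes name fastp 0.20.0, HISAT2 2.0.4, StringTie 1.2.3 and GRCh38, and the annotation release is not given in the sources used here. Libraries were made with the TruSeq kit and sequenced on a MiSeq. Groups came from the labels. log2(FPKM + 1) was compared without further scaling, and 1.5-fold was the threshold, with no test. The calculation was tested on simulated data. The members and lists were chosen with earlier results of these data known. Named genes were all members, CRNDE, and in each other list the most abundant gene and those past 1.5-fold, or the 2 highest and 2 lowest where more than 4 were past it. A single gene that this rule names is not reported here. Gene positions, 3' UTRs and GC content came from GENCODE release 44 (GRCh38), which matched 11508 of the 11619 identifiers. Alternatives were pseudocounts of 0.1 and 0.01, median centring, quantile normalization, rescaling to the same sum without mitochondrial, ribosomal and small RNA genes, subtraction of the median of 10 GC bins, a threshold of 2-fold and a minimum of 1 FPKM. Sums with pseudogenes, GC-corrected ratios and rescaling over all genes were added after seeing the data. The sums with pseudogenes were not weighted by transcript length. In both rescalings the common sum was above the FPKM sums of the libraries, which lowers the weight of the added 1. Python 3.11.15, numpy 2.4.6, pandas 2.3.3 and matplotlib 3.10.9 were used.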

Additional observations from a re-analysis of the deposited data

How the results depend on the processing

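With 1 library per group, neither replicate spread nor the precision that depth gives could be assessed, and every value compares 2 libraries. No paired analysis was possible because each group held 1 library. JARID2 and SUZ12 stayed past 1.5-fold under both other pseudocounts, median centring, quantile normalization, rescaling without mitochondrial, ribosomal and small RNA genes, and the GC correction, and 0 members were past 2-fold in either direction. Among calculations chosen after seeing the data, SUZ12 summed with SUZ12P1 was at -0.52 and the log2 difference of the ratio of MTF2 to PHF19 was 0.49 after GC correction, both within 1.5-fold. The sum with SUZ12P1 was not weighted by transcript length and does not decide the call for SUZ12. Rescaling over all genes, also chosen after seeing the data, put JARID2 at 0.45, within 1.5-fold, PHF19 at -0.75, past it, and the median of the members at -0.24. It gave 3001 lower genes in all, 0 higher and 2 lower members, and as lower genes 2 further PRC2 accessory genes, 10 PRC1 genes, 2 genes opposing Polycomb marks, 3 of other RBBP4 or RBBP7 complexes and 4 of the E2F and RB family. The planned addition of 1 FPKM put the log2 difference of the ratio of JARID2 to AEBP2 at 0.53, within 1.5-fold. Over all genes, 974 higher and 1026 lower became 1580 and 1721 with a pseudocount of 0.1, 1653 and 1828 with 0.01, 1508 and 1718 after the planned rescaling, 399 and 375 at 2-fold, and 585 and 654 with at least 1 FPKM in both libraries. The smaller added value and the smaller number of genes tested set these counts by construction. Both rescalings also lower the weight of the added 1, so their counts mix this with scaling. Of the PRC1 genes, 1 was higher after GC correction, at 2-fold or with the FPKM minimum, and 3 were lower after GC correction and 1 at 2-fold. Of the genes of other RBBP4 or RBBP7 complexes, 5 were higher with both other pseudocounts and after the planned rescaling, and 0 were lower after GC correction or at 2-fold. Of the E2F and RB genes, 4 were lower with a pseudocount of 0.01, 1 after median centring or quantile normalization, and 0 were higher or lower at 2-fold. Of the Polycomb targets, 4 were higher with both other pseudocounts, 3 after the planned rescaling, 2 after GC correction and 0 with the FPKM minimum. At 2-fold, 0 were lower among the Polycomb targets, the proliferation genes and the genes opposing Polycomb marks. Except where a count follows from its construction, the cause was not tested.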
